A study of Homo sapiens with 5 samples.

Results

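Metallothioneins and the genes of the cellular zinc response were followed in LNCaP cells. LNCaP is an established human cell line from prostate cancer that responds to androgen. The cells were treated for 6 h with 1.25 µM celastrol, a plant triterpenoid, or with the solvent DMSO. The members are MT1E, MT1F, MT1G, MT1H, MT1M, MT1X, MT2A, MTF1 and SLC30A1, taken by their symbols in the platform annotation. These 9 of 12165 named genes have 14 of the 22215 probe sets on the array, and none of the 14 names a second gene. Cells of both groups were grown in RPMI with 10% FBS, and the labels call the arrays biological replicates. There were 2 celastrol and 3 DMSO arrays by title, although the description of the DMSO samples speaks of celastrol. Celastrol replicates 1 and 2 were compared with DMSO replicates 1 and 2, and DMSO replicate 3 is given apart.

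Metallothioneins are small cytosolic proteins whose many cysteines bind zinc, copper and cadmium, and they buffer free zinc. Zinc ions activate MTF1, a zinc finger transcription factor, which binds metal response elements in the promoters of metallothionein genes and of SLC30A1. SLC30A1 (ZnT1) is the zinc exporter of the plasma membrane. Prostate epithelium is known for a high zinc content, which is lost in prostate cancer.

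DMSO replicate 3 did not have the profile of the other arrays. Its Pearson correlation with each of them over all probe sets was 0.843 to 0.844, whereas the other 4 correlated at 0.994 to 0.998. All 10 measured markers of luminal prostate epithelium were at least 2-fold lower on it than the mean of DMSO replicates 1 and 2, with a median log2 level of 4.56 against 9.81 to 9.96 on the other arrays. Of 13 measured leukocyte markers, 10 were at least 2-fold higher on it. The summed intensity of the 13 was 29256 against 839 to 919 elsewhere, and their median log2 level 10.9 against 4.30 to 4.37. LCP1, among the 13, was also bright on the other 4 arrays, at 9.24 to 9.41, against 12.3 on DMSO replicate 3. The 4 arrays compared carried the luminal markers, with KLK3 (prostate-specific antigen) at 10.2 and 10.1 with celastrol and 10.9 and 10.7 with DMSO. The 8 fibroblast and 5 endothelial markers had median log2 levels of 4.41 to 4.50 and 4.42 to 4.44 on the 4 arrays.

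The 7 metallothionein members lie in 1 cluster on chromosome 16, in the order MT2A, MT1E, MT1M, MT1F, MT1G, MT1H, MT1X, and MTF1 and SLC30A1 lie apart on chromosome 1. Promoter windows of 300 bases, from 250 before to 50 after the annotated start, were found in RefSeq (GRCh38.p14) for 5 of the 9 members: MT2A, MT1H, MT1X, SLC30A1 and MTF1. Each window was searched on both strands for the core of the metal response element, TGCACNC or TGCGCNC. The windows of 4 genes are shown because they set metallothioneins beside the exporter and the factor itself. They are MT2A at chr16:56608334-56608633 (+ strand), MT1X at chr16:56682220-56682519 (+ strand), SLC30A1 at chr1:211579112-211579411 (- strand) and MTF1 at chr1:37859543-37859842 (- strand), each printed along the gene's strand with the metal response element cores in capitals.
MT2A: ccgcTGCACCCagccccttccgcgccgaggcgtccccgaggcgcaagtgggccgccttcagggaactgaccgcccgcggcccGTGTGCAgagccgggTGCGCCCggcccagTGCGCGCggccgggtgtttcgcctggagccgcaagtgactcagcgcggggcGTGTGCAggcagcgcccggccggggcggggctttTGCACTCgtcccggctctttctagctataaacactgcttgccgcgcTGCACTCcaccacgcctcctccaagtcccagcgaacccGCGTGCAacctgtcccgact
MT1X: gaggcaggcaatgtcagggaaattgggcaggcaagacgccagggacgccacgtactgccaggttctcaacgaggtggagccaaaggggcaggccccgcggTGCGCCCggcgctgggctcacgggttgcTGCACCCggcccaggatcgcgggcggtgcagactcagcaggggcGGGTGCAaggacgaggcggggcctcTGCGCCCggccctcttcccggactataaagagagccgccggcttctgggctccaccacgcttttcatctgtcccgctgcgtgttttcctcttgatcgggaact
SLC30A1: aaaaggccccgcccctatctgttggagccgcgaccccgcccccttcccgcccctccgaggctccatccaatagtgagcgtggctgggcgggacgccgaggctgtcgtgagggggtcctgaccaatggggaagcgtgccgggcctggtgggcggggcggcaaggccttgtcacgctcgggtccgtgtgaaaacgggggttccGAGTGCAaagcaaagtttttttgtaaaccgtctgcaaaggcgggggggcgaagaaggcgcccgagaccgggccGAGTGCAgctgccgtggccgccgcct
MTF1: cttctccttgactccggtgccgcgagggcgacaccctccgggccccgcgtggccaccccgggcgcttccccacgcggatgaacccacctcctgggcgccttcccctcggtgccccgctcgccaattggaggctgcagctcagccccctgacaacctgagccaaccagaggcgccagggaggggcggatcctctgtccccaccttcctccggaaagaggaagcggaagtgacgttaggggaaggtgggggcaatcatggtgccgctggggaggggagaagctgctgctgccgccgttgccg

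The MT2A and MT1H windows held 8 cores each, a number reached by 0.0199% of 35116 promoter windows of this length. The MT1X window held 4, which 0.601% of windows reach or pass, and the SLC30A1 window held 2, which 8.6% reach or pass. The MTF1 window held 0 cores, and 29.6% of all windows held at least 1. No core overlapped another core in these 5 windows. The antioxidant response element core TGACNNNGC, on either strand, was found once each in the MT2A, MT1X and SLC30A1 windows and in 13.3% of all windows, in none of the 3 overlapping a metal response element core. These matches describe the letters and were not tested as binding sites.

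**Figure D1:**
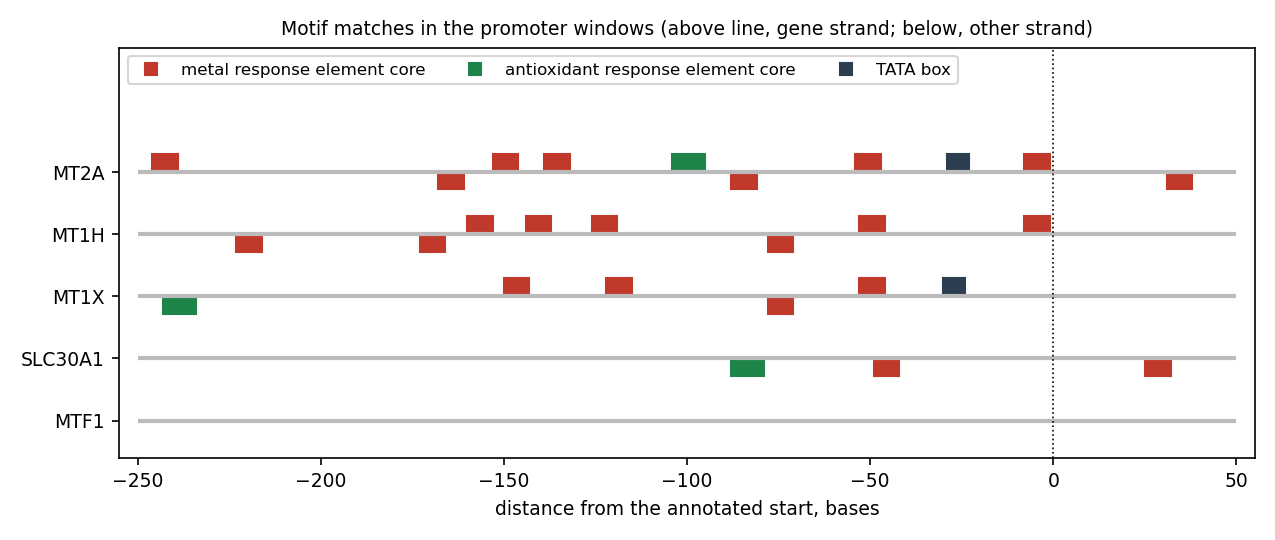
Motif matches in the 300-base promoter windows of 5 members, by distance in bases from the annotated start (dotted line). Blocks above each line lie on the gene's strand and blocks below on the other strand. MT2A and MT1H hold 8 metal response element cores each, MT1X 4, SLC30A1 2 and MTF1 0.

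The comparison asks which transcripts differ between celastrol and DMSO after 6 h. Levels are given as log2(intensity + 1). A difference subtracts the DMSO mean from the celastrol mean of these log2 levels, and the added 1 makes it too small where intensities are low. One of the 2 probe sets of MTF1 (205322_s_at) and that of SLC30A1 had the largest differences among the members, at 1.53-fold and 1.33-fold. The other MTF1 probe set (205323_s_at) stood at 1.06-fold. The probe sets of MT2A, MT1X, MT1H and the brighter one of MT1G stood at 1.08-fold to 1.24-fold. Those of MT1F, MT1M and MT1E and the dimmer one of MT1G stood between 0.966-fold and 1.06-fold. Of the 14 probe sets, 0 passed limma's adjusted p threshold of 0.05 over all probe sets, where 0.009% of the array did (1 probe set higher and 1 lower, 0.0045% each). Without the dimmest 40% of probe sets, 0 of the 12 member probe sets left were called, against 0.975% of the array. Before adjustment, limma's p was under 0.05 for 5 of 14, all on the higher side, against 5.6% of all probe sets on that side, and for 0 on the lower side, against 7.59%. Both celastrol arrays lay above both DMSO arrays for 7 of 14, against 14.5% of all probe sets, and below both for 0, against 17.6%. The median difference was 0.099 over the members and 0 over all probe sets, and without celastrol replicate 1 the members' median was 0.017. In bulk RNA, a change in every cell and a change in a share of the cells cannot be told apart.

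**Figure D2:**
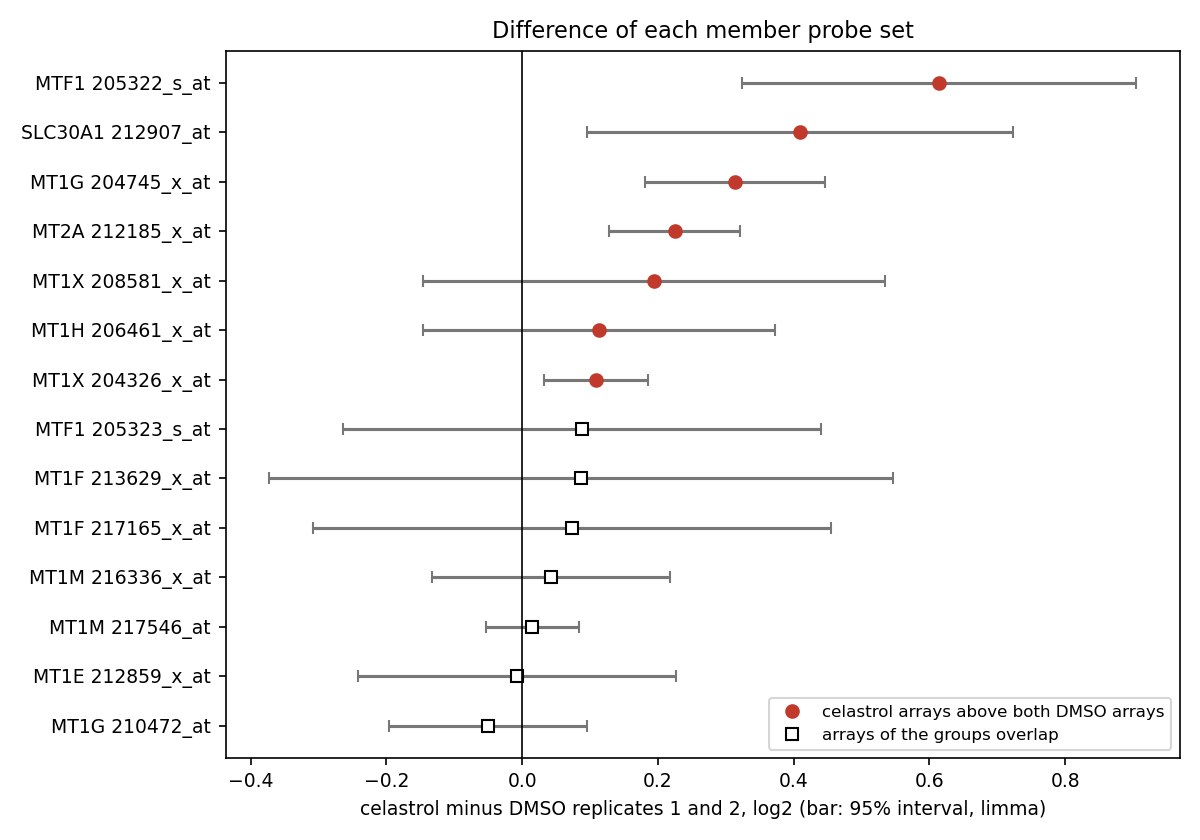
Difference of each member probe set, celastrol minus DMSO replicates 1 and 2, on the log2 scale, with the 95% interval from limma (2 arrays a group). Filled circles mark the 7 probe sets with both celastrol arrays above both DMSO arrays. The differences run from -0.050 for MT1G 210472_at to 0.61 for MTF1 205322_s_at.

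MTF1, the metal-sensing factor, was measured by 2 probe sets that gave unlike values. Probe set 205322_s_at had intensities of 74.2 and 81.7 with celastrol and of 53.6 and 47.7 with DMSO. Both celastrol arrays were above both DMSO arrays, and DMSO replicate 3, at 52.3, lay between the other DMSO arrays. On the log2 scale it averaged 6.30 ± 0.0969 with celastrol and 5.69 ± 0.118 with DMSO (SD, n = 2 each), a difference of 0.61 (SE 0.0906, 95% interval 0.32 to 0.90, limma adjusted p = 0.172). Leaving out any 1 of the 4 arrays kept this difference between 0.53 and 0.70. Probe set 205323_s_at had intensities of 41.2 and 34.7 with celastrol and of 34.2 and 36.9 with DMSO, so the groups overlapped. Its difference was 0.088 (SE 0.110, 95% interval -0.26 to 0.44, limma adjusted p = 0.688).

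SLC30A1, the plasma membrane zinc exporter, was measured by 212907_at. Its intensities were 171.0 and 150.6 with celastrol and 114.5 and 126.9 with DMSO. The groups did not overlap, and DMSO replicate 3 was lowest, at 86.4. The log2 level averaged 7.34 ± 0.129 with celastrol and 6.93 ± 0.104 with DMSO (SD, n = 2 each), and the difference was 0.41 (SE 0.0978, 95% interval 0.096 to 0.72, limma adjusted p = 0.281).

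MT2A, a metallothionein expressed in most human tissues, had intensities of 734.7 and 722.3 with celastrol and of 634.7 and 611.8 with DMSO on 212185_x_at. The 2 celastrol arrays were close to each other and above both DMSO arrays. The log2 level averaged 9.51 ± 0.0174 with celastrol and 9.29 ± 0.0374 with DMSO (SD, n = 2 each), a difference of 0.22 or 1.17-fold (SE 0.0301, 95% interval 0.13 to 0.32, limma adjusted p = 0.157).

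MT1G, a zinc-binding isoform, was measured by 204745_x_at and 210472_at. The first had intensities of 311.9 and 305.3 with celastrol and of 240.9 and 255.6 with DMSO, with no overlap. Its difference of 0.31 (SE 0.0413, 95% interval 0.18 to 0.45, limma adjusted p = 0.153) was the largest among the metallothionein probe sets. That difference also had the smallest p of all 14 member probe sets. The second was dim and carried the identical intensity of 24.8 on 4 of the 5 arrays, with 26.6 on DMSO replicate 1. Its difference was -0.050 (SE 0.0453, limma adjusted p = 0.622).

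MT1X, another isoform, also had 2 probe sets. On 208581_x_at its intensities were 282.8 and 249.3 with celastrol and 246.8 and 218.1 with DMSO. The lower celastrol array and the higher DMSO array were nearly equal, and the difference of 0.19 had an SE of 0.106 and a 95% interval of -0.15 to 0.53 (limma adjusted p = 0.622). On 204326_x_at the intensities were 159.7 and 157.2 with celastrol and 145.3 and 148.4 with DMSO, a difference of 0.11 (SE 0.0238, limma adjusted p = 0.253). The annotation names this probe set MT1X, but the transcript it cites belongs to the pseudogene MT1L of the same cluster in RefSeq, so its source is uncertain.

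MT1F, MT1H, MT1M and MT1E, further isoforms of the cluster, gave differences between -0.0077 and 0.11. MT1F had intensities of 142.6 and 120.8 with celastrol and of 134.9 and 113.2 with DMSO on 213629_x_at, and its groups overlapped on both probe sets, with differences of 0.087 and 0.073. MT1H had 42.4 and 37.0 with celastrol and 36.7 and 36.4 with DMSO, a difference of 0.11 (SE 0.0808) with both celastrol arrays above DMSO by a narrow margin, and 0.018 without celastrol replicate 1. MT1M and MT1E were dim. Differences of MT1M were 0.043 and 0.015, and MT1E, with intensities of 21.8 and 19.5 with celastrol and 21.4 and 20.1 with DMSO, differed by -0.0077. MT1M 217546_at and MT1E were among the dimmest 40% of the array by their mean over the 5 arrays.

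The metallothionein probe sets are not independent readings of 7 genes. Of the 11, 9 carry the suffix _x_at, which the manufacturer gives to probe sets whose probes can match other sequences, and the isoforms are closely alike in sequence, so signal cannot be assigned to 1 isoform with certainty. Celastrol replicate 1 was above celastrol replicate 2 for 9 of 11, against 43.5% of all probe sets. DMSO replicate 1 was above DMSO replicate 2 for 9 of 11, against 38.6%. Ties lower these shares over all probe sets. Of 22215 probe sets, 4290 were equal on the 2 celastrol arrays and 3937 on the 2 DMSO arrays. The gap between replicates reached 0.25 in both groups, on the MT1F probe sets. The celastrol difference was larger than both of the probe set's own replicate gaps for 4 of 11, namely MT1G 204745_x_at, MT2A and both of MT1X, against 22.9% of all probe sets.

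**Figure D3:**
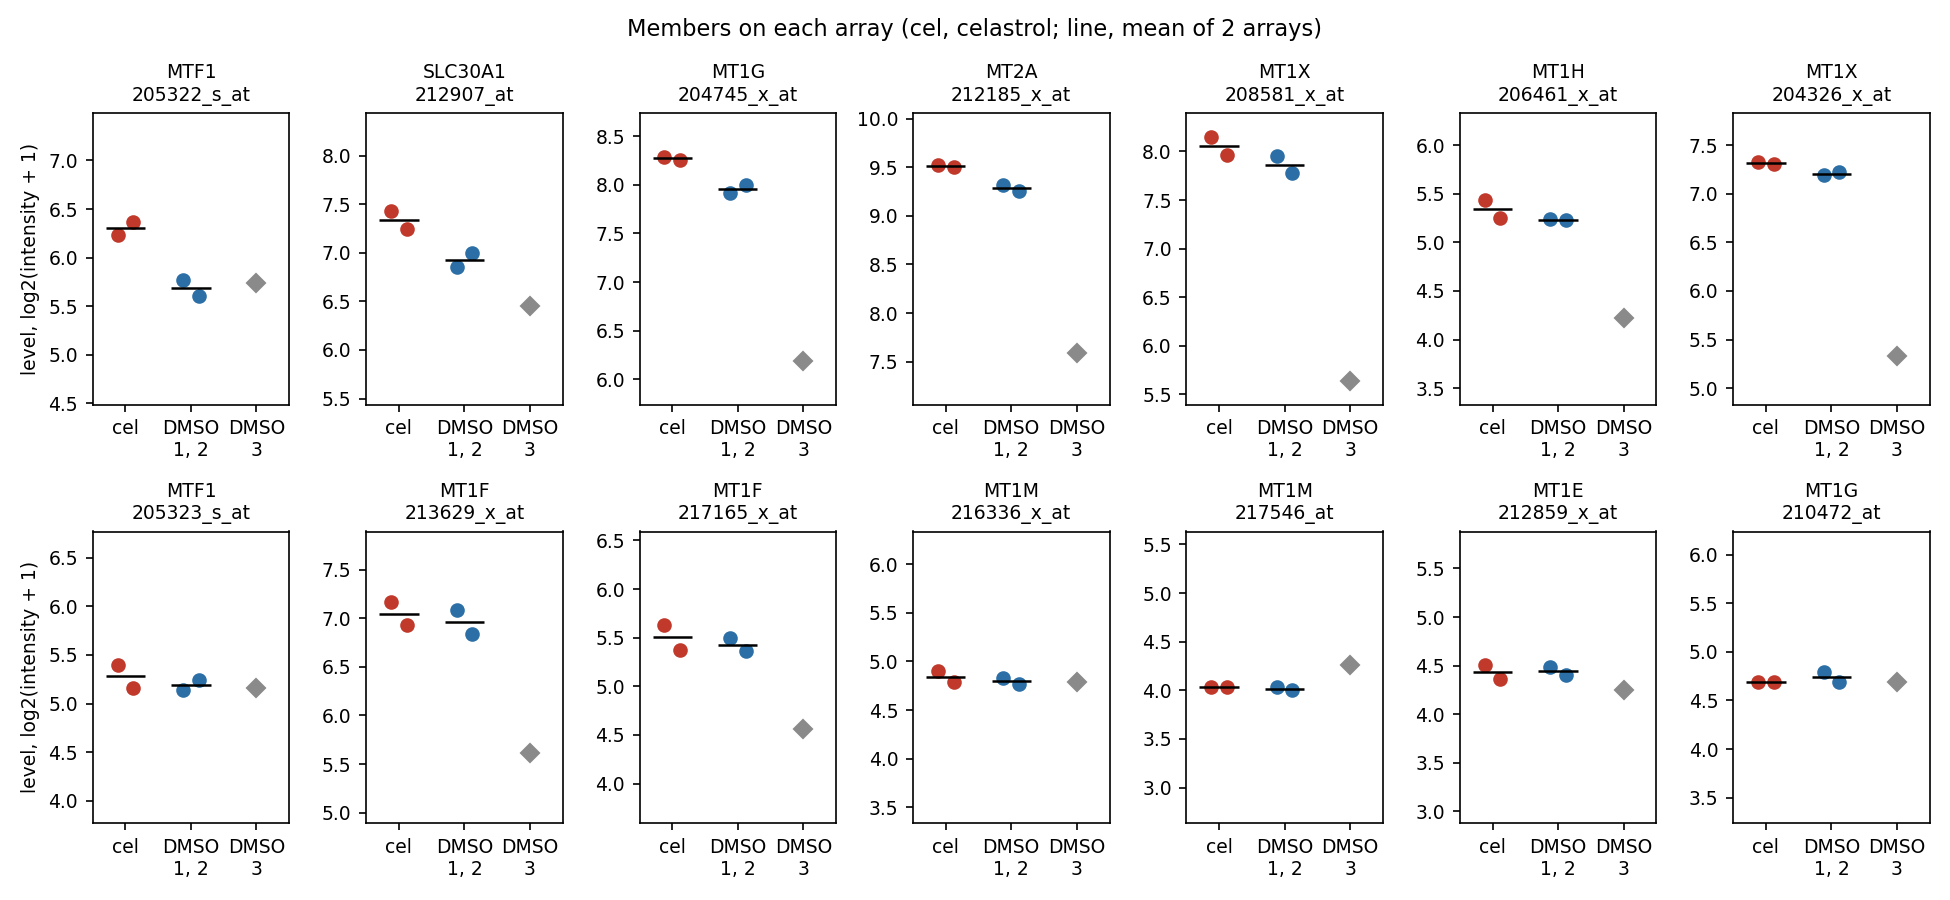
Log2(intensity + 1) of the 14 member probe sets on each array, ordered by difference. Red points are the 2 celastrol arrays, blue points DMSO replicates 1 and 2, grey diamonds DMSO replicate 3, and lines the means of 2 arrays; each panel spans 3 log2 units. The difference of DMSO replicate 3 from the mean of the other DMSO arrays is -2.22 for MT1X 208581_x_at and 0.048 for MTF1 205322_s_at.

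On DMSO replicate 3, 6 of the 14 probe sets were at least 2-fold below the mean of DMSO replicates 1 and 2, against 10.1% of all probe sets, and 0 were at least 2-fold above it, against 7.52%. All 6 were metallothionein probe sets, of MT1X, MT1G, MT2A, MT1F and MT1H. MT1X 208581_x_at stood at an intensity of 48.9 on that array, against 246.8 and 218.1 on DMSO replicates 1 and 2. MT2A stood at 192.0 there, against 634.7 and 611.8. With this array in the DMSO group, the difference of MT2A was 0.79 and that of MT1G 204745_x_at 0.90, with SEs of 0.641 and 0.671, and 0 of 22215 probe sets passed the threshold. MTF1 205322_s_at had a difference of 0.60 in that fit (limma adjusted p = 0.846).

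Of 34 other zinc genes listed, namely metallothioneins outside the members and the ZnT and ZIP transporter families, 17 were measured, each by its brightest probe set. Limma called 0 of 17 (0.0164% of all genes), 6 had an unadjusted limma p under 0.05 (15.1% of all genes), 1 higher and 5 lower. The celastrol arrays lay above both DMSO arrays for 1 gene (15% of all genes) and below both for 6 (19.4% of all genes). The median difference of the 17 was 0.0098. The other metallothioneins MT1HL1, MT4 and MT3 differed by 0.096, 0.028 and 0.0098 with overlapping groups.

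SLC30A4 (ZnT4), which moves zinc into intracellular vesicles, had the largest difference of these 17 genes. Its intensities were 406.6 and 391.2 with celastrol and 622.0 and 771.1 with DMSO. Both celastrol arrays were below both DMSO arrays, and DMSO replicate 3 was far lower, at 21.2. The difference was -0.79 or 0.577-fold (SE 0.131, limma adjusted p = 0.186). SLC30A5 (ZnT5), which loads zinc into the early secretory pathway, was the 1 gene above DMSO. It had intensities of 235.1 and 236.4 with celastrol and of 202.7 on both DMSO arrays, whose tie leaves 1 group without spread. Its difference was 0.22 (SE 0.0185, limma adjusted p = 0.104), while its other, dim probe set 220181_x_at differed by -0.00088. SLC30A9 (ZnT9) differed by -0.14.

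ZIP proteins bring zinc into the cytosol, and 8 ZIP genes were measured. The celastrol arrays lay below both DMSO arrays for 4 (19.4% of all genes) and above both for 0 (15% of all genes). The 4 were SLC39A8, SLC39A2, SLC39A6 and SLC39A4, with differences of -0.39, -0.22, -0.18 and -0.12. Of these, SLC39A2 was among the dimmest 40%, at intensities of 14.7 and 15.5 with celastrol and 18.4 and 17.0 with DMSO. SLC39A8 (ZIP8), which also takes up cadmium and manganese, had intensities of 397.8 and 345.2 with celastrol and of 506.7 and 463.2 with DMSO (SE 0.101, limma adjusted p = 0.310). The 3 other SLC39A8 probe sets differed by -0.13, -0.038 and 0.025, the last 2 of them among the dimmest 40%. The other 4 ZIP genes had overlapping groups and differences between -0.064 and 0.055.

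**Figure D4:**
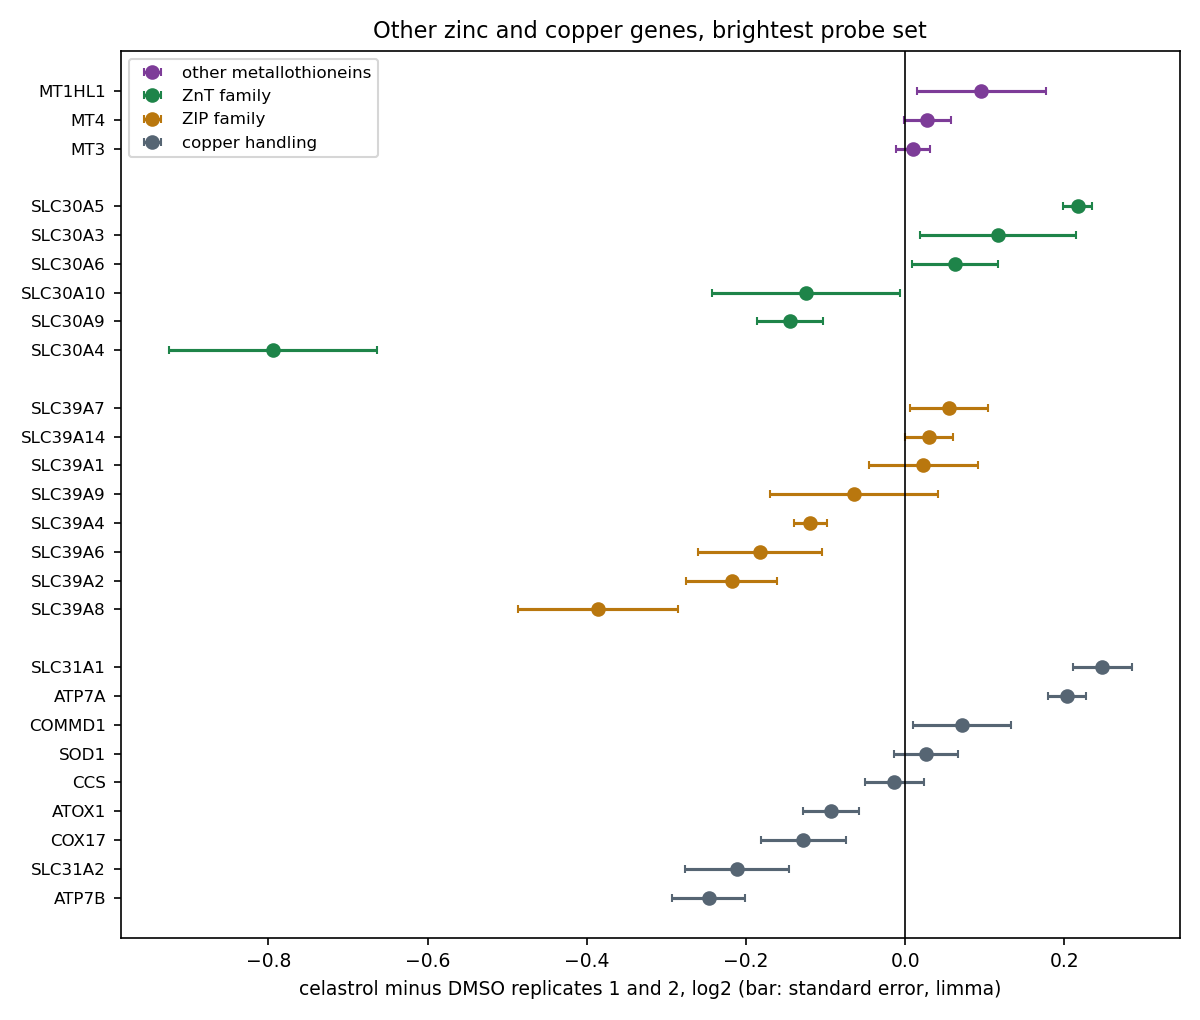
Difference of 26 other zinc and copper genes on the log2 scale, celastrol minus DMSO replicates 1 and 2, for the brightest probe set of each, with limma's standard error. SLC30A4 stands at -0.79, and the other 25 lie between -0.39 and 0.25.

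HMOX1, the inducible heme oxygenase, which cadmium and other metals also induce, had intensities of 3924 and 4853 with celastrol and of 61.9 and 79.2 with DMSO. That is a difference of 5.94 or 61.4-fold (SE 0.192, limma adjusted p = 0.0622, and 0.0300 without the dimmest 40% of probe sets), against 0.22 for MT2A on the same arrays. HSPA1B, an inducible HSP70 that metals also induce, differed by 2.37 or 5.15-fold (SE 0.0587, limma adjusted p = 0.0622, and 0.0300 without the dimmest 40%). GCLC, a glutathione synthesis gene linked to MTF1 in mouse, differed by 0.39 (SE 0.0427, limma adjusted p = 0.132), with 0.47 on its other probe set. The first of these GCLC probe sets stood at 267.8 on both DMSO arrays, a tie that leaves 1 group without spread. The list of metal-induced genes held 7, each read by its brightest probe set. The celastrol arrays lay above both DMSO arrays for these 3 (15% of all genes). They lay below both for 1, CEBPA (19.4% of all genes), which differed by -0.35. The other 3, SELENOW, PGF and TXNRD2, had overlapping groups and differences between -0.17 and 0.078. Another PGF probe set, 209652_s_at, differed by 0.31 (SE 0.0502, limma adjusted p = 0.186), with both celastrol arrays above both DMSO arrays. Another TXNRD2 probe set, 210803_at, differed by 0.0041. Both of these probe sets were among the dimmest 40%.

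The genes with the most similar profiles were found as those at the smallest Euclidean distance over the 4 arrays, each profile centred on its mean, among 12164 other genes. For MTF1 205322_s_at they were ZNF177, UBE2O and NFX1, at distances of 0.0748, 0.0792 and 0.0835. For SLC30A1 they were PSAT1, TMED5 and GOLPH3L, at 0.0388, 0.0411 and 0.0481. For MT1G 204745_x_at they were ROM1, EIF2S2 and ZFAND1, at 0.0146, 0.0235 and 0.0297. With 4 arrays such likeness rests on few values and is given as a description.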

How the data were processed

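Messenger RNA was measured on 5 Affymetrix arrays, per the labels' protocols from Trizol-extracted RNA made into biotinylated cRNA. The deposited values are intensities, 1 for each probe set on each array, and are linear. The submitters' processing notes name RMA; its version and the chip description are not given in the sources used here. Groups follow the sample titles. Values were taken as log2(intensity + 1) without further normalization. Limma 3.58.1 (R 4.3.3; lmFit, eBayes, two-sided) was fitted to 4 arrays over all 22215 probe sets, leaving out DMSO replicate 3. Adjustment was by Benjamini-Hochberg, with a threshold of 0.05 and no filter. On simulated data the fit was checked only for returning an added difference on average. That check does not show how reliable the calls are. The number of arrays limits the precision, and no detection call was used. The members, gene lists and the choice of arrays were made with earlier results of these data known. Every member probe set is given; of other genes, the called ones or the 3 largest differences of a list in either direction, with genes behind a count of groups that do not overlap named too, after their values were seen, the 3 nearest profiles of 3 members, and KLK3, FOLH1, MS4A1 and CD79A as array checks. FOLH1 stood at 4.43 on DMSO replicate 3 against 12.8 and 12.8 on the other DMSO arrays, MS4A1 at 10.9 against 4.52 and 4.52, and CD79A at 8.63 against 4.20 and 4.29. Per gene, the probe set of highest mean over the 4 arrays that names it alone was used. Alternatives covered all 5 arrays, a dim filter (40% of lowest mean left out), quantile and median normalization, a pseudocount of 16, a robust variance trend, the replicate block and leaving out each array.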

Additional observations from a re-analysis of the deposited data

How the results depend on the processing

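Under all 11 alternatives 0 of the member probe sets tested were called by limma. MTF1 205322_s_at, SLC30A1, MT1G 204745_x_at, MT2A, MT1H and both MT1X probe sets kept a difference above 0 under each alternative; on the 4 arrays or fewer it ran from 0.50 to 0.70 for MTF1, 0.32 to 0.50 for SLC30A1, 0.20 to 0.25 for MT2A and 0.27 to 0.36 for MT1G, but from 0.018 (without celastrol replicate 1) to 0.21 (without celastrol replicate 2) for MT1H, against 0.11, and from 0.10 to 0.28 for MT1X 208581_x_at, against 0.19, its ends without the same arrays and 0.11 without DMSO replicate 2. The number of probe sets called on the whole array depended strongly on the setting. Against 1 higher and 1 lower, there were 72 and 58 with the dim filter, 121 and 76 after quantile normalization, 86 and 53 after median centring, and 26 and 17 with log2(value + 16). Trend and robust variance gave 2 and 0, and both all 5 arrays and the replicate block gave 0 and 0. Of 33 other zinc, copper and metal-induced genes 0 were called, and 2, HMOX1 and HSPA1B with the dim filter, under each of the dim filter, quantile normalization, median centring and log2(value + 16). The members' median of 0.099 was 0.49 on all 5 arrays. With 1 of the 4 arrays left out, a lone array is assumed to vary like the other group. The members' median then ran from 0.017 (without celastrol replicate 1) to 0.21 (without celastrol replicate 2). In these settings between 8 and 12 of the 14 member probe sets had every celastrol array above every DMSO array. There were fewer arrays to overlap, and the share of all probe sets is not given for these settings. These counts therefore cannot be set against the array.

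Signs turned for small differences. MT1E was 0.057 on all 5 arrays and 0.013 after median centring, and MT1M 217546_at was -0.066 on all 5 arrays and -0.0015 after quantile normalization. With 1 array left out the difference ran from -0.032 to 0.21 for MTF1 205323_s_at, -0.039 to 0.21 for MT1F 213629_x_at, -0.052 to 0.20 for MT1F 217165_x_at, -0.013 to 0.098 for MT1M 216336_x_at and -0.082 to 0.067 for MT1E. The cause was not tested. Across all probe sets, the differences of replicates 1 and 2 in the 2 groups correlated at r = -0.0197. This does not settle whether equal replicate numbers were paired, which the titles do not say. With the replicate block, the SE of MT1X 208581_x_at was 0.0311 against 0.106, and that of MT1F 213629_x_at 0.0314 against 0.143. For MTF1 205322_s_at it was 0.108 against 0.0906, and for SLC30A1 0.116 against 0.0978.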

Other observations

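Copper is another metal that metallothioneins bind, and its 9 listed genes were all measured. Limma called 0 of them (0.0164% of all genes), and 4 had an unadjusted limma p under 0.05 (15.1% of all genes), 2 higher and 2 lower. The celastrol arrays lay above both DMSO arrays for 2 of 9 (15% of all genes) and below both for 4 (19.4% of all genes). SLC31A1 (CTR1), the copper importer of the plasma membrane, and ATP7A, a copper-exporting ATPase, had differences of 0.25 (SE 0.0368, limma adjusted p = 0.173) and 0.20 (SE 0.0240, limma adjusted p = 0.141), and were the 2 above DMSO. The other ATP7A probe set, 205198_s_at, differed by -0.066. ATP7B, the related ATPase, and SLC31A2 differed by -0.25 and -0.21, at low intensities. The other 2 genes below DMSO were bright: COX17, a copper chaperone for cytochrome c oxidase, differed by -0.13 and the chaperone ATOX1 by -0.093.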
